A study of Homo sapiens with 9 samples.

Results

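The genes described here encode the Integrator complex and the factors that cleave and polyadenylate RNA polymerase II transcripts. They were taken by name from the count table: protein-coding genes named INTS, CPSF or CSTF followed by a number, together with NUDT21, PCF11, CLP1, XRN2, SYMPK, WDR33, FIP1L1, PAPOLA, PAPOLG, PABPN1, RBBP6, SLBP, LSM10 and LSM11. This rule found 40 of the 58735 genes in the table, and all 40 were among the 16350 genes with enough counts to be tested. Integrator subunits and the INTS6 paralogue INTS6L made up 15 of them, and 3′ end processing and termination factors the other 25.

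Bulk RNA was sequenced from SKOV3 cells, an established human ovarian cancer line, to ask how gene expression depends on ALK activity and on tyrosine 19 of CDK9. All groups were SKOV3 lines that stably expressed a form of CDK9, in the study's design after depletion of their own CDK9 by shRNA. The groups were WT CDK9 cells under basal conditions, WT CDK9 cells treated with an ALK inhibitor for 24 h, and Tyr19Phe CDK9 cells, whose CDK9 cannot be phosphorylated at that tyrosine. The inhibitor and its dose in this experiment, and whether each line was a single clone, are not given in the sources used here, so the mutation and any other difference between the stable lines cannot be told apart. Each group had 3 libraries. Nothing states that they came from separate cultures, so p-values measure only the spread between these libraries, which may be technical.

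Total gene counts were 19731228, 19231320 and 18939449 in the WT CDK9 libraries, 20974903, 18169050 and 19207111 after the inhibitor, and 29320184, 27906210 and 26485891 in Tyr19Phe CDK9 cells. Levels are given below as CPM, which are read counts scaled to a common library size by TMM. Genes detected numbered 21241 to 22104 in the WT CDK9 libraries, but only 19944 in ALK inhibitor replicate 2 and 20635 in Tyr19Phe replicate 3, which stood apart from the other libraries of their groups. The summed CPM of the 40 genes was 3490.3 to 3571 in WT CDK9 cells, 3416 to 3463 after the inhibitor and 3445 to 3465 in Tyr19Phe CDK9 cells. CDK9 itself, the kinase that was replaced, measured 48.4, 49.7 and 47.6 CPM in WT CDK9 cells, 43.8, 47.3 and 45.7 after the inhibitor and 52.4, 53.1 and 59.5 in Tyr19Phe CDK9 cells, and gene counts do not separate the introduced from the endogenous transcript. Against WT CDK9 cells CDK9 had a log2 fold change of -0.092 under the inhibitor (edgeR adjusted p = 0.665) and 0.18 with Tyr19Phe (edgeR adjusted p = 0.106), and directly between those groups 0.27 (edgeR adjusted p = 0.00961).

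SKOV3 and epithelial markers were all present, with 4910 to 5730.1 CPM summed over 6 genes and KRT7 and KRT8 at 1224 to 1738 CPM. Single markers differed between groups: in WT CDK9, inhibitor-treated and Tyr19Phe CDK9 cells ERBB2 averaged 1776, 2638 and 1478 CPM, KRT19 242, 286 and 104 CPM, and EPCAM 20.9, 21.0 and 12 CPM. In the same order KRT7 averaged 1599, 1279 and 1530.4 CPM, KRT8 1289.7, 1312 and 1703 CPM, and KRT18 133, 149 and 178 CPM. The immune marker LYZ was at 0 in every library, and PTPRC and CD3E had at most 3 counts in a library. The 3 endothelial markers summed to 0.048 to 0.634 CPM in the groups with WT CDK9 and 1.06 to 1.40 CPM with Tyr19Phe, where CDH5 averaged 0.791 CPM against 0 in WT CDK9 cells. VWF averaged 0.280 and 0.379 CPM and PECAM1 0.0858 and 0 CPM in WT and Tyr19Phe CDK9 cells. The 5 fibroblast markers summed to 109 to 112 CPM in WT CDK9 cells, 125 to 162 CPM after the inhibitor and 38.7 to 52.4 CPM in Tyr19Phe CDK9 cells. COL1A1 made up most of that sum, averaging 103 CPM in WT and 38.2 CPM in Tyr19Phe CDK9 cells, while COL1A2 averaged 6.41 and 6.19 CPM and PDGFRA 0.290 and 0.560 CPM. The fibroblast markers DCN and LUM were at or near 0, with at most 4 counts in a library. In bulk RNA, fewer cells with a transcript and less transcript per cell cannot be told apart, and the part of these markers in the results below was not tested.

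Integrator binds RNA polymerase II near promoters and at small nuclear RNA genes, where its endonuclease cuts the nascent RNA and its phosphatase module removes phosphates from the polymerase. Most mRNAs are ended by cleavage and polyadenylation: CPSF reads the polyadenylation signal and cuts, CstF and the cleavage factors bind flanking sequence, and poly(A) polymerase adds the tail. CDK9, the kinase of P-TEFb, phosphorylates the polymerase tail to which several of these factors bind, and replication-dependent histone mRNAs instead end in a stem-loop bound by SLBP.

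In WT CDK9 cells the levels per length of the 40 genes ran from 73.3 CPM per kilobase for SLBP to 0.314 CPM per kilobase for INTS6L. SLBP stood at 73.3 ± 1.68 CPM per kilobase (mean and SD of 3 libraries). Next came XRN2, the exonuclease that degrades the downstream RNA after cleavage, at 52.3 ± 1.08 CPM per kilobase. CPSF1, the large scaffold of signal recognition, and NUDT21, the UGUA-binding subunit of CFIm, followed at 49.0 ± 1.74 and 48.1 ± 1.13 CPM per kilobase, and these levels overlapped between libraries. INTS1, a large Integrator scaffold, was the highest Integrator gene per length, at 32.5 ± 1.30 CPM per kilobase. The endonuclease genes INTS11 and CPSF3 had overlapping levels per length, 14.6 ± 0.462 and 14.5 ± 1.05 CPM per kilobase. INTS6L and CPSF4L lay at the low end, with under 100 counts in every library, while the 40 genes together spanned 36 to 8664 counts per library. Of the 39 neighbouring pairs in this order, 15 did not overlap between the 3 WT CDK9 libraries.

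**Figure D1:**
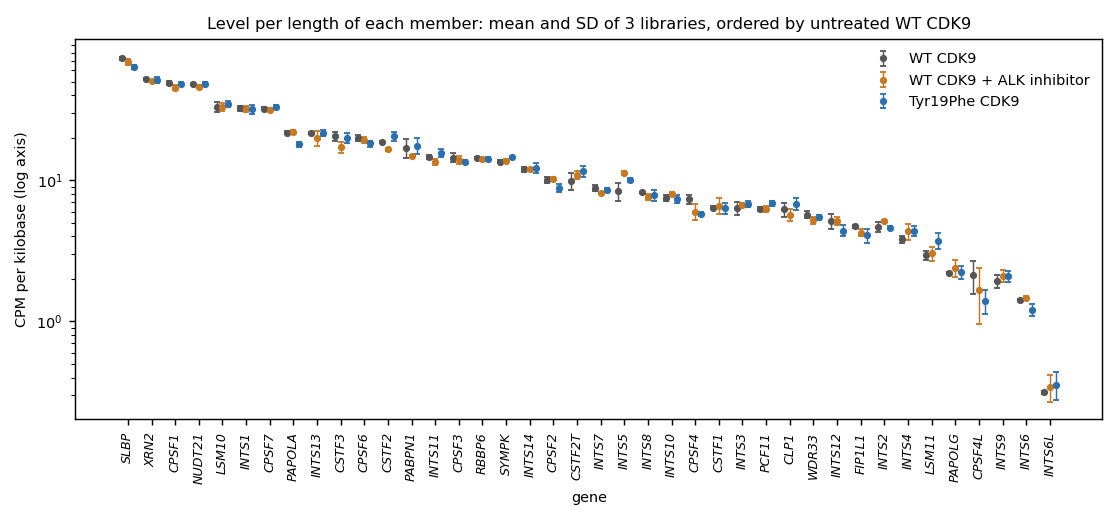
Mean level per length of each of the 40 genes in CPM per kilobase (log axis) with the SD of 3 libraries, for WT CDK9 cells (grey), ALK inhibitor-treated WT CDK9 cells (orange) and Tyr19Phe CDK9 cells (blue). SLBP is highest at 73.3 CPM per kilobase and INTS6L lowest at 0.314 CPM per kilobase in WT CDK9 cells.

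The first comparison asked what 24 h of ALK inhibition did to these genes in WT CDK9 cells. ALK itself had 0 to 5 counts in each of the 9 libraries. INTS5, which encodes a scaffold subunit of the Integrator core, rose by 34.6%, and CSTF3, which encodes the CstF subunit that bridges the complex, fell by 15.7%. These were the 2 genes of the 40 with an adjusted p under the 0.05 threshold, which is 5%, against 4.55% of all tested genes. By direction, 1 of 40 was lower against 2.73% of all tested genes and 1 higher against 1.82%. The median log2 fold change was -0.027 over the 40 genes and -0.0010 over all tested genes, and for 36 of the 40 the whole 95% interval lay within 0.5 of 0.

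INTS5 measured 32.0, 25.6 and 24.6 CPM in the WT CDK9 libraries, 36.8, 38.3 and 35.8 CPM with the inhibitor and 33.6, 33.5 and 31.9 CPM in Tyr19Phe CDK9 cells. Every inhibitor-treated library lay above all WT CDK9 libraries, and WT replicate 1 was the highest of its group. The log2 fold change with the inhibitor was 0.43 (SE 0.099, edgeR adjusted p = 0.00617, higher in 3 of 3 libraries). Without WT replicate 3 it was 0.36 with an edgeR adjusted p of 0.0585, so that call rested on that library, and over the 24 alternatives it ran from 0.00119 to 0.0585. In Tyr19Phe CDK9 cells INTS5 had a log2 fold change of 0.27 (SE 0.098, edgeR adjusted p = 0.0571) and overlapped WT replicate 1. It was called higher there in 8 of the 24 alternatives, among them without WT replicate 1 (0.40, edgeR adjusted p = 0.00920), with a replicate block (0.27, edgeR adjusted p = 0.0444) and with upper quartile scaling (0.29, edgeR adjusted p = 0.0387), in a range of 0.00920 to 0.263. On the same strand, 55.9% of the INTS5 gene is also covered by AP001458.2, which had 0 counts in every library. Reads in the shared part could be lost, and the effect of that on these values was not tested.

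Among the other Integrator genes none was called with the inhibitor by edgeR at the adjusted threshold, by DESeq2 or at an unadjusted p under 0.05. The 15 log2 fold changes ran from -0.12 to 0.43 with 10 above 0 and 5 below. INTS11, the endonuclease of Integrator, measured 119, 124 and 116 CPM in WT CDK9 libraries, 116, 110.3 and 105 CPM with the inhibitor and 125, 137 and 122 CPM with Tyr19Phe. The WT and inhibitor libraries overlapped narrowly, and the log2 fold change of -0.11 (SE 0.058) did not pass the test (edgeR adjusted p = 0.350). Its partners in the cleavage module gave values of 0.19 for INTS4 and 0.13 for INTS9, with intervals of -0.034 to 0.41 and -0.19 to 0.45 on the log2 scale.

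CSTF3 measured 99.2, 87.4 and 90.1 CPM in WT CDK9 cells, 76.7, 71.3 and 85.2 CPM with the inhibitor and 88.9, 83.8 and 98.0 CPM with Tyr19Phe. All inhibitor libraries lay below all WT libraries, though ALK inhibitor replicate 3 at 85.2 CPM came close to WT replicate 2. The log2 fold change was -0.25 (SE 0.071, edgeR adjusted p = 0.0387, lower in 3 of 3 libraries). The call was lost without WT replicate 1 (edgeR adjusted p = 0.286), WT replicate 3 (0.0631), ALK inhibitor replicate 1 (0.132) or ALK inhibitor replicate 2 (0.254), and without both libraries that stood apart (0.213). With all libraries kept it was also lost under upper quartile scaling (edgeR adjusted p = 0.0528), library size alone (0.0744) and thinned libraries (0.0525). Over the 24 alternatives it ran from 0.00853 to 0.286. TCP11L1, on the opposite strand over 33.8% of the CSTF3 gene, had a log2 fold change of 0.016, and the strand setting of the counting is not given in the sources used here, so reads of CSTF3 and TCP11L1 there cannot be told apart.

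CSTF2, the CstF subunit that binds GU-rich RNA, measured 41.0, 41.2 and 40.1 CPM in WT CDK9 libraries, 35.1, 36.0 and 37.3 CPM with the inhibitor and 44.7, 41.8 and 48.6 CPM with Tyr19Phe. The inhibitor libraries lay below and the Tyr19Phe libraries above every WT library. Against WT CDK9 cells neither difference passed the test, with log2 fold changes of -0.17 (edgeR adjusted p = 0.320) and 0.14 (edgeR adjusted p = 0.261). With the inhibitor the values were 0.12 for CSTF2T, an intronless copy of CSTF2 that lies inside PRKG1, and 0.041 for CSTF1, and reads shared by CSTF2 and its copy could be split between them.

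The 5 genes of polyadenylation signal recognition all had values below 0 with the inhibitor, from -0.34 to -0.12 on the log2 scale, and none passed the adjusted threshold. CPSF4, a zinc finger subunit that contacts the AAUAAA signal, came nearest at -0.29 (SE 0.10, edgeR adjusted p = 0.134). CPSF1 followed at -0.12 (SE 0.043, edgeR adjusted p = 0.134). The value farthest from 0 was that of CPSF4L, which had under 100 counts in every library and an interval of -1.05 to 0.37.

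CPSF3, the endonuclease that cuts pre-mRNA, measured 52.1, 52.6 and 59.2 CPM in WT CDK9 libraries, 52.3, 55.8 and 49.0 CPM with the inhibitor and 50.9, 52.4 and 49.5 CPM with Tyr19Phe. The groups overlapped, and the log2 intervals were -0.22 to 0.10 with the inhibitor and -0.26 to 0.056 with Tyr19Phe. XRN2 measured 180.1, 183 and 176 CPM, 176, 174 and 171 CPM and 174, 184 and 169 CPM in the same order of groups. Its inhibitor libraries lay just under the WT libraries, by a log2 fold change of -0.047 (SE 0.047) that did not pass the test (edgeR adjusted p = 0.739), and its Tyr19Phe libraries overlapped WT. PCF11, the CFIIm subunit that binds the polymerase tail, measured 63.0, 60.5 and 64.1 CPM in WT CDK9 libraries, 62.7, 65.5 and 59.3 CPM with the inhibitor and 68.9, 65.6 and 71.0 CPM with Tyr19Phe. The Tyr19Phe libraries lay above all WT libraries for PCF11, at a log2 fold change of 0.13 (SE 0.068) that missed the threshold (edgeR adjusted p = 0.203).

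Over the 40 genes, the 3 inhibitor libraries did not overlap the 3 WT libraries for 14, or 35%, against 19.6% of all tested genes. The median absolute log2 fold change with the inhibitor was 0.10 over the 40 genes and 0.13 over all tested genes. The median SE was also smaller over the 40 genes, at 0.078 against 0.127. A smaller spread makes groups overlap less often at the same change, and its part in the 35% was not tested.

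**Figure D2:**
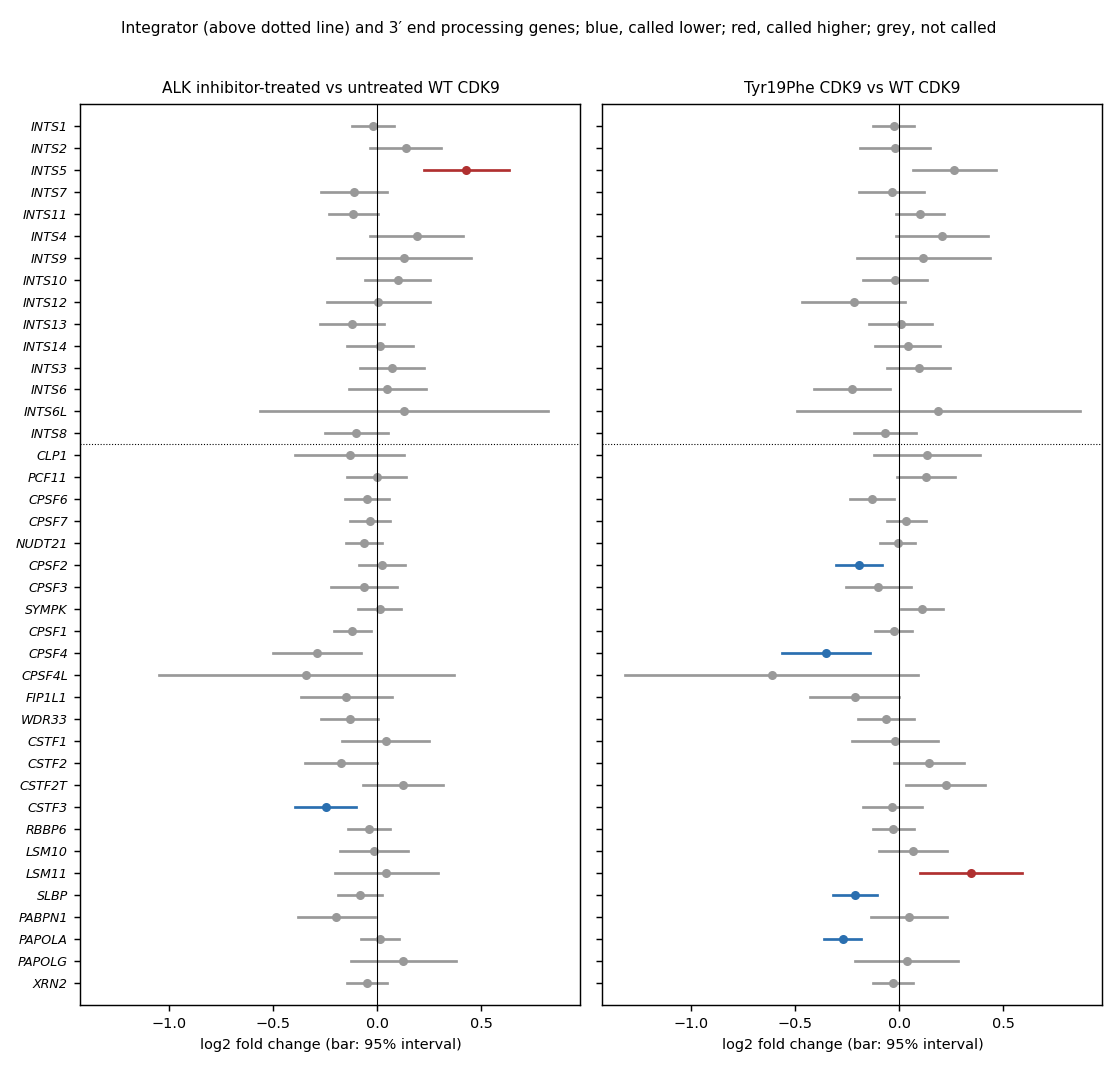
Log2 fold change of each of the 40 genes with its 95% interval, for the ALK inhibitor against untreated WT CDK9 cells (left) and for Tyr19Phe against WT CDK9 cells (right), with Integrator genes above the dotted line. Called genes are in colour: INTS5 at 0.43 and CSTF3 at -0.25 on the left, and PAPOLA at -0.27, SLBP at -0.21, CPSF2 at -0.19, CPSF4 at -0.35 and LSM11 at 0.34 on the right.

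The next comparison asked how Tyr19Phe CDK9 cells differed from WT CDK9 cells, measured against the same WT libraries. PAPOLA, the main nuclear poly(A) polymerase, fell by 17.0%, SLBP by 13.6%, CPSF2 by 12.5% and CPSF4 by 21.6%. LSM11, a U7 snRNP protein used in histone 3′ end cleavage, rose by 27.0%. These 5 of 40 genes are 12.5%, against 18% of all tested genes. By direction, 4 of 40 were lower against 10.4% of all tested genes and 1 higher against 7.61%. No Integrator gene was called by edgeR as reported or by DESeq2, and at an unadjusted p under 0.05 there was 1 lower (INTS6) and 1 higher (INTS5). These calls depended on the setting: INTS5 was called with a replicate block (edgeR adjusted p = 0.0444) and in 7 other alternatives, in a range of 0.00920 to 0.263. INTS6 was called without Tyr19Phe replicate 3 (edgeR adjusted p = 0.0348), in a range of 0.0308 to 0.312. The libraries of the groups did not overlap for 11 of the 40 genes, or 27.5%, against 32.6% of all tested genes, and the median log2 fold change was -0.019 over the 40 genes and 0.0035 over all tested genes.

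PAPOLA measured 270.1, 278 and 283 CPM in the WT CDK9 libraries, 274, 289 and 276 CPM with the inhibitor and 237, 219 and 233 CPM in Tyr19Phe CDK9 cells. Tyr19Phe libraries all lay below every other library, while the inhibitor libraries overlapped WT. The log2 fold change with Tyr19Phe was -0.27 (SE 0.044, edgeR adjusted p = 2.18e-05, lower in 3 of 3 libraries) and the call was kept in each of the 9 fits that left out 1 library. Over the 24 alternatives the edgeR or DESeq2 adjusted p ran from 1.17e-08 to 0.773. The call was lost with the median shift of neighbouring genes taken out, as described below. There the log2 fold change was -0.028 (edgeR adjusted p = 0.773). PAPOLG, a second nuclear poly(A) polymerase, had a log2 fold change of 0.036 (interval -0.21 to 0.28). PABPN1, the nuclear poly(A)-binding protein, had one of 0.046 (interval -0.14 to 0.23), and 83.3% of its gene is also covered by the readthrough gene BCL2L2-PABPN1 on the same strand.

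CPSF2, the inactive partner of the CPSF3 nuclease, measured 143, 138 and 130.2 CPM in WT CDK9 libraries, 138, 144 and 137 CPM with the inhibitor and 121, 113 and 127 CPM with Tyr19Phe. The Tyr19Phe libraries lay below every WT library, with Tyr19Phe replicate 3 nearest to WT replicate 3. The log2 fold change was -0.19 (SE 0.055, edgeR adjusted p = 0.0116, lower in 3 of 3 libraries). Without WT replicate 1 the edgeR adjusted p was 0.0979, and without Tyr19Phe replicate 2 it was 0.103, in a range of 0.00737 to 0.831 over the 24 alternatives. The call was also lost with the neighbours' shift taken out, at a log2 fold change of 0.027 (edgeR adjusted p = 0.831). The third gene of that module, SYMPK, a scaffold that holds the nuclease, had a log2 fold change of 0.11 (SE 0.049, edgeR adjusted p = 0.120), and was called with library size alone (0.0463, in a range of 0.0463 to 0.561).

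The promoters of PAPOLA and CPSF2 are shown because both genes, 4.38 Mb apart on chromosome 14, fell with Tyr19Phe. They are RefSeq sequences on GRCh38.p14, from 250 bases before to 50 after the RefSeq gene start. They lie at chr14:96502126-96502425, plus strand, and chr14:92121719-92122018, plus strand. The count table starts PAPOLA at 96501433, outside the printed sequence, and CPSF2 at 92121937, inside it. A table of such promoters held 34 of the 40 genes, the first entry being used where a gene had several, and CPSF1, CPSF4L, INTS5, INTS8, INTS9 and INTS10 had no entry. Both strands were searched for 7 motifs chosen after the values were seen: the CCAAT box (CCAAT), the GC box (GGGCGG), an ETS site (CCGGAAG), a palindromic NRF1 site of 10 bases, an E2F site (GCGGGAA), the cAMP response element (TGACGTCA) and the TATA box (TATAAA). A GC box can run into an E2F site or a reversed CCAAT box. Matches are in capitals.
PAPOLA: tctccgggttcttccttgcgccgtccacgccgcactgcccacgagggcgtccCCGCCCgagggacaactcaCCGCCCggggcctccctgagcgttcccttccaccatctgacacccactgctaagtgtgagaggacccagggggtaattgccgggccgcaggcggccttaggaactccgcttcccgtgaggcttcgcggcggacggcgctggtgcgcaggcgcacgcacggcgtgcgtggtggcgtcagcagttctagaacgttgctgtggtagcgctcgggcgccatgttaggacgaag
CPSF2: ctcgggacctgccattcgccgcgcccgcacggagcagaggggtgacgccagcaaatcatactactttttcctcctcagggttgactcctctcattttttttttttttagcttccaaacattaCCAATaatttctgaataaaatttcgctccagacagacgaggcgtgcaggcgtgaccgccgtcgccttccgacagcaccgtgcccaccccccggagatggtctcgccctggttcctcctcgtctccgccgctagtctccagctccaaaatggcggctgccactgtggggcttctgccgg
PAPOLA held 2 GC boxes and CPSF2 held 1 CCAAT box, so no motif was common to both. GC boxes occurred in 24 of the 34 promoters, or 70.6%, against 44.6% of 27305 promoters of the same length, and CCAAT boxes in 17 against 35.7% of all. ETS sites occurred in 10 (29.4%, against 10.7% of all), E2F sites in 5 (14.7%, against 6.56%), cAMP response elements in 4 (11.8%, against 1.98%) and the NRF1 site in 1 (2.94%, against 1.36%). No TATA box was found in the 34, against 12% of all promoters. The 34 promoters had a median GC content of 63.5% against 58.3% of all promoters, and its part in these shares was not tested. All promoters were not limited to protein-coding genes or to tested genes, whereas the 34 belong to genes that are both. The part of that difference in these shares was not tested either. A match describes the letters only.

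CPSF2 starts 20 bases from NDUFB1, a respiratory complex I gene read in the opposite direction, so the printed promoter covers both starts. NDUFB1 was also lower with Tyr19Phe, at a log2 fold change of -0.40 (SE 0.11, edgeR adjusted p = 0.00956). Of the 40 genes, 10 had a tested protein-coding gene starting head to head within 1 kb, and in the other pairs the gene of the 40 was not called with Tyr19Phe. Among their partners OGFOD1, which starts within 1 kb of NUDT21, was called higher at 0.18 (edgeR adjusted p = 0.0498) beside -0.0075 for NUDT21. ITGB1BP1 stood at 0.067 beside -0.10 for CPSF3, CPTP at 0.19 beside 0.10 for INTS11 and AURKA at -0.17 beside -0.021 for CSTF1, none of them called. The remaining partners were not called either. SDHAF2 and AP003108.2 stood at 0.12 and -0.27 beside 0.034 for CPSF7, and FGFR1OP2 at 0.065 beside 0.0084 for INTS13. SLC24A1 stood at -0.0095 beside 0.043 for INTS14, DTL at 0.043 beside -0.036 for INTS7 and HMBOX1 at -0.10 beside 0.12 for INTS9. NDUFB1 was described after its values were seen.

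SLBP measured 146, 152 and 148 CPM in WT CDK9 libraries, 143, 133 and 145 CPM with the inhibitor and 129, 124 and 132 CPM with Tyr19Phe. No Tyr19Phe library reached the lowest WT library. The log2 fold change was -0.21 (SE 0.052, edgeR adjusted p = 0.00317, lower in 3 of 3 libraries), and the call was kept in each of the 9 fits that left out 1 library, with adjusted p of 6.75e-04 to 0.589 over the 24 alternatives. With the neighbours' shift taken out the call was lost, at a log2 fold change of -0.056 (edgeR adjusted p = 0.589). LSM11 went the other way within the histone 3′ end group, at 17.8, 19.8 and 20.6 CPM in WT CDK9 libraries, 21.2, 17.2 and 21.4 CPM with the inhibitor and 21.1, 26.2 and 26.5 CPM with Tyr19Phe. Tyr19Phe replicate 1 lay only just above the highest WT library. Its log2 fold change was 0.34 (SE 0.12, edgeR adjusted p = 0.0404, higher in 3 of 3 libraries). That call was lost without WT replicate 1 (edgeR adjusted p = 0.173), WT replicate 2 (0.0641), Tyr19Phe replicate 2 (0.150) or Tyr19Phe replicate 3 (0.150), and without both libraries that stood apart (0.111), in a range of 0.0143 to 0.173 over the alternatives. LSM10, the partner of LSM11 in the U7 ring, had a log2 fold change of 0.066 (interval -0.10 to 0.23).

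CPSF4 measured 33.3, 30.8 and 29.2 CPM in WT CDK9 libraries, 25.5, 28.6 and 22.4 CPM with the inhibitor and 24.3, 25.3 and 23.6 CPM with Tyr19Phe. Both other groups lay below all WT libraries. With Tyr19Phe the log2 fold change was -0.35 (SE 0.10, edgeR adjusted p = 0.0145, lower in 3 of 3 libraries). It missed the threshold without WT replicate 1 (edgeR adjusted p = 0.103) or Tyr19Phe replicate 3 (0.0616), in a range of 0.0109 to 0.103 over the alternatives. The whole CPSF4 gene is covered on the opposite strand by PTCD1, and 48.2% by ATP5MF, whose log2 fold changes were -0.44 (SE 0.32) and -0.13 (SE 0.084) without passing the test, and whether reads of both strands were separated is not known.

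**Figure D3:**
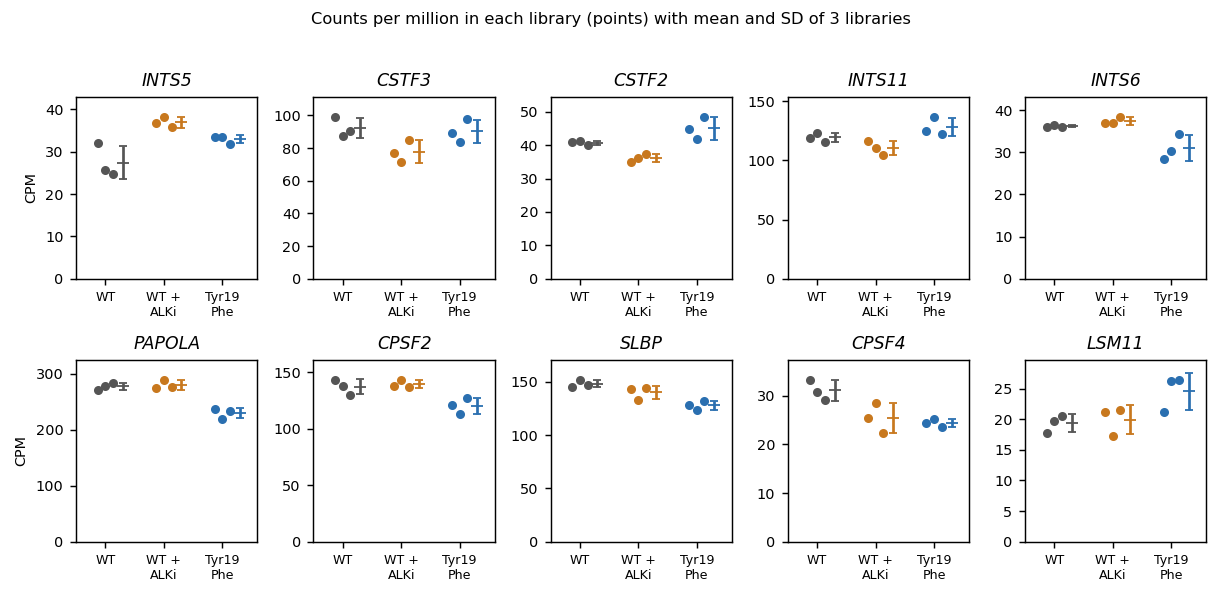
CPM in each library (points) with the mean and SD of 3 libraries for the 10 genes called in a comparison between the groups, each axis starting at 0. PAPOLA lies at 219 to 237 CPM in Tyr19Phe CDK9 cells and at 270.1 to 289 CPM in the other libraries.

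PAPOLA, CPSF2 and SLBP, which fell with Tyr19Phe, lay among neighbours whose median was also below 0. The median log2 fold change of the tested genes within 5 Mb on either side was -0.21 around PAPOLA (54 genes), -0.23 around CPSF2 (62 genes) and -0.18 around SLBP (75 genes). Of the neighbours of PAPOLA, 46 of 54 were below 0 and 17 (31.5%) were called lower, with 0 called higher. Around CPSF2 51 of 62 were below 0 and 20 (32.3%) were called lower, with 0 called higher. Around SLBP the numbers were 59 of 75, 16 (21.3%) and 0. Among all tested genes 8083 of 16350 were below 0, 10.4% were called lower and 7.61% higher. The windows of PAPOLA and CPSF2 share 40 genes and hold 76 together, so they are not separate observations. With the inhibitor the same windows had medians of 0.020, 0.0054 and -0.011.

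Windows with a median as low as these were uncommon: 3.33% of all tested genes had one as low as PAPOLA, 2.43% as low as CPSF2 and 4.73% as low as SLBP. FIP1L1, a poly(A) polymerase tether, and INTS12, an Integrator subunit, share chromosome 4 with SLBP and were picked out after their values were seen. Their log2 fold changes were -0.21 and -0.22, beside window medians of -0.20 and -0.33, and neither passed the test (edgeR adjusted p = 0.174 and 0.239). Over chromosome 4 the median log2 fold change of 608 tested genes was -0.22 with 34.4% called lower, and over chromosome 14 that of 537 genes was -0.13 with 22.3% called lower, against 10.4% of all tested genes. On chromosomes 5, 7 and 11, which hold LSM11, CPSF4 and CSTF3, the medians were -0.0024, -0.018 and 0.047 with 8.80%, 9.02% and 8.46% called lower. PABPN1, also on chromosome 14, stood at 0.046 beside a window median of 0.030. GSTCD, on the opposite strand over 65.1% of INTS12, had a log2 fold change of -0.37 (edgeR adjusted p = 0.00438). CSTF2T, also picked out after its values were seen, stood at 0.22 beside a window median of 0.26 (edgeR adjusted p = 0.0947), and was called without WT replicate 2 (0.0378) or Tyr19Phe replicate 2 (0.0481), in a range of 0.0378 to 0.602.

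When the median shift of the neighbours was taken out of each library, PAPOLA had a log2 fold change of -0.028 (edgeR adjusted p = 0.773), SLBP one of -0.056 (edgeR adjusted p = 0.589) and CPSF2 one of 0.027 (edgeR adjusted p = 0.831). CPSF4 and LSM11 lay among neighbours near 0, with medians of -0.026 and -0.020, and kept log2 fold changes of -0.33 (edgeR adjusted p = 0.0290) and 0.35 (edgeR adjusted p = 0.0422). INTS5 and CSTF3 likewise kept their calls with the inhibitor, at 0.44 (edgeR adjusted p = 0.00543) and -0.29 (edgeR adjusted p = 0.00951). Across the 40 genes the correlation between a gene's log2 fold change and its window median was 0.53 (Pearson; Spearman 0.54) with Tyr19Phe and -0.15 (Spearman -0.11) with the inhibitor. Over all 16342 genes with neighbours it was 0.16 (Spearman 0.20) and 0.029 (Spearman 0.047). These are descriptions across genes, which share windows and libraries and are not independent replicates, and what shifted the neighbours was not tested.

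**Figure D4:**
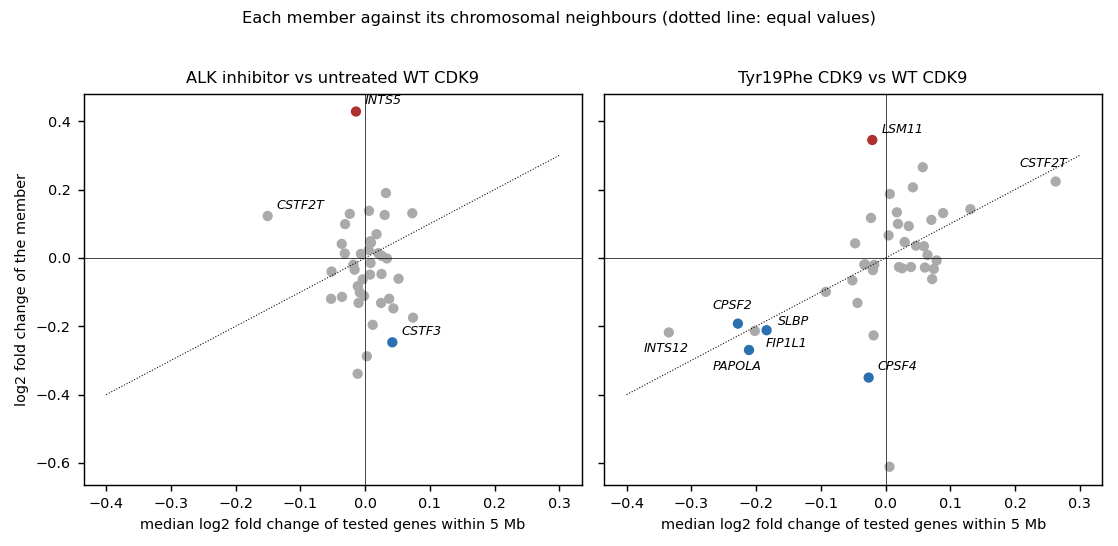
Log2 fold change of each of the 40 genes against the median of the tested genes within 5 Mb on either side, for the inhibitor (left) and Tyr19Phe (right), with called genes in colour and a dotted line at equal values. PAPOLA, CPSF2 and SLBP lie near that line at window medians of -0.21, -0.23 and -0.18, whereas CPSF4 and LSM11 lie at -0.026 and -0.020.

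**Figure D5:**
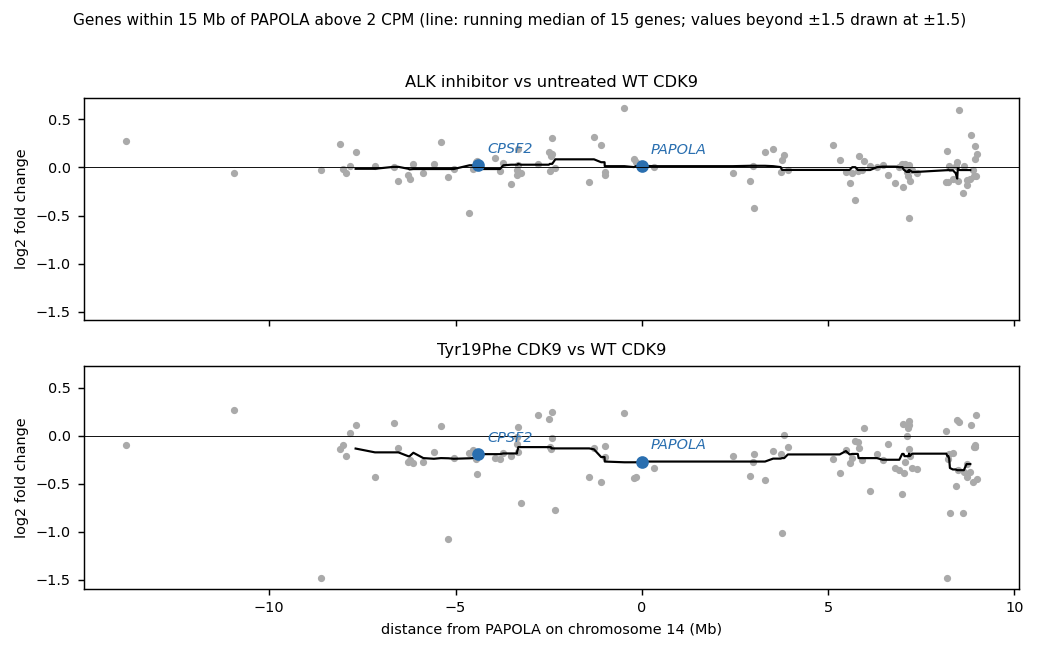
Log2 fold change of genes above 2 CPM by distance from PAPOLA on chromosome 14 in Mb, with a running median (line), for the inhibitor (top) and Tyr19Phe (bottom). PAPOLA and CPSF2 are in blue, at 0.014 and 0.023 with the inhibitor and at -0.27 and -0.19 with Tyr19Phe.

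Tyr19Phe CDK9 cells were then set directly against ALK inhibitor-treated WT CDK9 cells, which tests whether the shifts from the shared WT libraries differed. PAPOLA, CPSF2 and INTS6 were lower in Tyr19Phe CDK9 cells, and CSTF2, INTS11 and CSTF3 were higher. That is 6 of 40 genes, or 15%, against 20.7% of all tested genes. By direction, 3 were lower against 11.1% of all tested genes and 3 higher against 9.57%.

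PABPN1 came near the threshold in this comparison and was picked out after its values were seen. It measured 72.3, 71.5 and 53.9 CPM in WT CDK9 libraries, 58.7, 56.8 and 57.1 CPM with the inhibitor and 61.2, 77.8 and 65.3 CPM with Tyr19Phe. All Tyr19Phe libraries lay above the inhibitor libraries, and WT replicate 3 lay below every other library. The direct difference was 0.24 (SE 0.090, edgeR adjusted p = 0.0528). It was called higher in 11 of the 24 alternatives, among them a replicate block (edgeR adjusted p = 0.0349) and without WT replicate 2 (0.0436), WT replicate 3 (0.0214) or Tyr19Phe replicate 1 (0.0223), in a range of 0.00883 to 0.371. With the inhibitor against WT it stood at -0.20 (edgeR adjusted p = 0.297), and without WT replicate 3 it was called lower at -0.32 (edgeR adjusted p = 0.0262, in a range of 0.0262 to 0.733).

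CSTF2 and CSTF3, 2 of the 4 CstF genes, were called higher in Tyr19Phe CDK9 cells, as were 9.57% of all tested genes. The differences were 0.32 for CSTF2 (SE 0.083, edgeR adjusted p = 0.00520) and 0.21 for CSTF3 (SE 0.070, edgeR adjusted p = 0.0273). CSTF1 at -0.061 and CSTF2T at 0.10 did not pass the test (edgeR adjusted p = 0.734 and 0.499), and with the neighbours' shift taken out CSTF2T was called lower, at -0.34 (edgeR adjusted p = 0.0107, in a range of 0.0107 to 0.841). For CSTF2 both groups were apart in all 3 libraries, but they overlapped for CSTF3, where Tyr19Phe replicate 2 lay below ALK inhibitor replicate 3. CSTF2 lost the call only when both libraries that stood apart were left out, among the 24 alternative settings (edgeR adjusted p = 0.0758, in a range of 0.00289 to 0.0758). CSTF3 lost it without ALK inhibitor replicate 1 (edgeR adjusted p = 0.0824), ALK inhibitor replicate 2 (0.171), Tyr19Phe replicate 3 (0.184) or both libraries (0.481), in a range of 0.00970 to 0.481. Their RefSeq promoters are shown because both genes were called here, with the same build, length and motifs as above. They lie at chrX:100820141-100820440, plus strand, and chr11:33161431-33161730, minus strand. The count table starts CSTF2 at 100820359, inside the printed sequence, and CSTF3 at 33162371, outside it.
CSTF2: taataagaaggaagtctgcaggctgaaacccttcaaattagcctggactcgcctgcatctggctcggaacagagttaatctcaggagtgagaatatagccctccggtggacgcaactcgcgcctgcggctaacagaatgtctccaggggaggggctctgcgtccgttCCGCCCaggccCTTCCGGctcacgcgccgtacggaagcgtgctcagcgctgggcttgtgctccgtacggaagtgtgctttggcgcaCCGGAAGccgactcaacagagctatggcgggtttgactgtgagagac
CSTF3: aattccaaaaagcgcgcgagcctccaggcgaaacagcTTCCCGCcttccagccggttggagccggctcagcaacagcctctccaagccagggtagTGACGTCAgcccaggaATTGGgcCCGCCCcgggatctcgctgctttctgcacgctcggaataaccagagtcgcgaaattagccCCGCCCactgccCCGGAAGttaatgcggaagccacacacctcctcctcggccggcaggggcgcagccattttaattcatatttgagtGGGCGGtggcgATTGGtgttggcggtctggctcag
GC boxes and ETS sites occurred in both, and CSTF3 also held CCAAT boxes, an E2F site and a cAMP response element.

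INTS11 was higher in Tyr19Phe than in inhibitor-treated cells by 0.21 (SE 0.057, edgeR adjusted p = 0.00631), with libraries that did not overlap. The call was lost without ALK inhibitor replicate 3 (edgeR adjusted p = 0.0544) or Tyr19Phe replicate 2 (0.0655), and with the neighbours' shift taken out (0.110), where the difference was 0.14, in a range of 0.00239 to 0.110. INTS6, a subunit of the Integrator phosphatase module, measured 36.1, 36.5 and 36.0 CPM in WT CDK9 libraries, 37.0, 36.9 and 38.4 CPM with the inhibitor and 28.3, 30.3 and 34.3 CPM with Tyr19Phe. All Tyr19Phe libraries lay below the other libraries, with Tyr19Phe replicate 3 the closest to them. The direct log2 difference was -0.28 (SE 0.089, edgeR adjusted p = 0.0257). It missed the threshold without ALK inhibitor replicate 1 (edgeR adjusted p = 0.0557) or 3 (0.0927), without Tyr19Phe replicate 1 (0.138) or 2 (0.0862), and with the neighbours' shift taken out (0.0897), where the difference was -0.23, in a range of 0.0109 to 0.138. PAPOLA differed by -0.28 (SE 0.043, edgeR adjusted p = 8.43e-06) and CPSF2 by -0.22 (SE 0.055, edgeR adjusted p = 0.00413), and with the neighbours' shift taken out these became -3.3e-04 and 0.035, where the adjusted p was highest in ranges of 9.88e-10 to 0.997 and 0.00178 to 0.757.

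Partners of these factors outside the naming rule formed a list of 50 genes, of which 49 were tested and PAPOLB had 0 counts. With the inhibitor 3 were lower and 2 higher, or 10.2% against 4.55% of all tested genes. With Tyr19Phe 9 were lower and 3 higher, or 24.5% against 18%, and in the direct comparison 7 were lower and 11 higher, or 36.7% against 20.7%. In the same order, the median absolute log2 fold change was 0.079, 0.063 and 0.14 over the list. Over all tested genes it was 0.13, 0.18 and 0.20. The median SE was 0.068, 0.067 and 0.067 over the list against 0.127, 0.125 and 0.124. The part of this smaller spread in the shares called was not tested. PABPC1, a cytoplasmic poly(A)-binding protein, averaged 1449 ± 49.4 CPM (mean and SD of 3 libraries) without and 1122 ± 27.8 CPM with the inhibitor, and 1215 ± 16.0 CPM with Tyr19Phe. It fell in both, with log2 fold changes of -0.37 (edgeR adjusted p = 8.68e-10) and -0.25 (edgeR adjusted p = 5.41e-07), and reads shared with its processed copies could be lost or split. NABP1, a single-stranded DNA-binding partner of INTS3, fell with the inhibitor from 146 ± 11.3 to 110.1 ± 4.23 CPM, at -0.41 (edgeR adjusted p = 1.40e-05), and had -0.059 with Tyr19Phe (edgeR adjusted p = 0.562).

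PPP1R10, the PNUTS subunit that holds protein phosphatase 1 on termination complexes, rose in both, by 0.26 (edgeR adjusted p = 0.0433) and 0.40 (edgeR adjusted p = 2.09e-04) on the log2 scale. Its catalytic partner PPP1CC was lower with Tyr19Phe at -0.22 (edgeR adjusted p = 6.02e-04). SNRPB, a core protein of the spliceosomal snRNPs and of U7, rose with Tyr19Phe from 135 ± 9.78 to 178 ± 9.67 CPM, at 0.40 (edgeR adjusted p = 1.07e-05). PHF3 and RPRD1A, which bind the polymerase tail, and MTREX, the helicase of nuclear RNA decay, were lower with Tyr19Phe, at -0.24, -0.22 and -0.28 (edgeR adjusted p = 9.43e-04, 0.00197 and 0.00151). Some of the 9 partners called lower lay among neighbours that were also shifted: PHF3 beside a window median of -0.24 (6 genes), and, picked out after their values were seen, ZC3H14 at -0.21 beside -0.20 and CDKN2AIP at -0.33 beside -0.23. For the other 6 called lower the window medians ran from -0.077 (PABPC1) to 0.057 (ZNF473). The 3 called higher were PPP1R10 beside a window median of 0.13, SNRPB beside -0.0097 and SNRPD3, at 0.17, beside 0.23.

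A few further partners were picked out after their values were seen. PPP1CB, another catalytic subunit of protein phosphatase 1, rose with the inhibitor (0.18, edgeR adjusted p = 0.00553) and fell with Tyr19Phe (-0.18, edgeR adjusted p = 0.00226), and the direct difference was -0.36 (edgeR adjusted p = 5.91e-08). The U1 snRNP genes SNRPA, SNRPC and SNRNP70, whose particle holds back premature polyadenylation, were all higher in Tyr19Phe than in inhibitor-treated cells, at 0.21, 0.18 and 0.21 (edgeR adjusted p = 0.0264, 0.0345 and 0.00366). Against WT CDK9 cells their values with the inhibitor were -0.23, -0.19 and -0.17, each missing the threshold (edgeR adjusted p = 0.0523, 0.0744 and 0.0671), and with Tyr19Phe -0.019, -0.012 and 0.042 (edgeR adjusted p = 0.899, 0.928 and 0.660). Gene counts do not separate transcript isoforms, so the choice of polyadenylation site by any gene was not analysed here.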

How the data were processed

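Gene counts per library were deposited by the authors as 1 table; the submitters' processing notes name CASAVA, HISAT2 2.0.5 and featureCounts 1.5.0-p3 on GRCh38, and the annotation release and strand setting are not given in the sources used here. The gene length in that table, in bases, is the authors' value per gene and served for CPM per kilobase. Genes were kept by filterByExpr (minimum count 10, minimum total 15), scaled by TMM and fitted over all 9 libraries with 3 group means in edgeR 4.0.16 (R 4.3.3, limma 3.58.1), and tested by its quasi-likelihood test with Benjamini-Hochberg adjustment over all 16350 genes. Called means adjusted p under 0.05. Intervals are 95% and use a t quantile of 2.04. DESeq2 1.42.0 served as an alternative, among 24 settings. Neighbours are tested genes whose midpoints lie within 5 Mb. Motifs and figures used Python 3.11.15, pandas 2.3.3 and matplotlib 3.10.9. The fit was tested on simulated data with known fold changes. The smallest of these was larger than any called among the genes described here, so changes of their size were not covered.

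Values in every library are given for genes called against WT CDK9 cells, for the 5 with the smallest adjusted p in the direct comparison, and always for CPSF3, INTS11, XRN2, PCF11, SLBP and PAPOLA; of the partner list, the 8 with the smallest adjusted p against WT CDK9 cells are named. The genes and lists were chosen with earlier results of these data known. Between libraries of a group, squared differences were 4.27 to 8.81 times counting error. Depth floors (3 counts) equal 0.102 to 0.165 CPM and cover counting error only.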

Additional observations from a re-analysis of the deposited data

How the results depend on the processing

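DESeq2, DESeq2 size factors, no filter and fits of only the compared groups changed no count of called genes by over 1.5 times. With 1 library left out, called genes numbered 491 to 738 for the inhibitor, 2180 to 3038 for Tyr19Phe and 2622 to 3426 directly. Of the 40 genes, those called lower numbered 0 to 1, 2 to 5 and 2 to 4 in these comparisons, and those higher 0 to 1, 0 to 1 and 2 to 5. These were not always the same genes: PABPN1 was newly called for the inhibitor (in place of CSTF3 without WT replicate 3), CPSF6, CSTF2T, INTS5 and INTS6 for Tyr19Phe, and PABPN1, LSM11 and SLBP directly. An unadjusted p under 0.05 called 2473, 4739 and 5145 of the 16350 tested genes, and 6, 10 and 11 of the 40 in either direction. An adjusted p under 0.01 called 427, 1850 and 2088 genes in all, and a log2 fold change of at least 0.3 left 417, 1728 and 2013. For the inhibitor, 5 of the 40 were lower at the unadjusted p, and 0 by the adjusted p under 0.01, the fold rule, upper quartile scaling, library size alone, thinned libraries or without both libraries that stood apart. For Tyr19Phe, lower genes numbered 2 at the adjusted p under 0.01, 1 by the fold rule and 1 (CPSF4) with the neighbours' shift taken out. Higher ones numbered 4 at the unadjusted p, 3 by library size alone, 2 with upper quartile scaling, protein-coding genes only, a minimum of 10 counts per library or thinned libraries, and 0 at the adjusted p under 0.01 or without both libraries. Directly, higher genes numbered 7 at the unadjusted p, 5 among protein-coding genes, 1 by the fold rule and 1 without both libraries, and lower ones 0 by the fold rule and 1 with the neighbours' shift taken out, which was CSTF2T, newly called; PAPOLA and CPSF2 went to near 0, while INTS6 missed the threshold at -0.23. CPSF2 changed sign under that shift, to 0.027 with Tyr19Phe and 0.035 directly. The cause was not tested. Replicate numbers did not pair the libraries (correlations of deviations -0.012 to 0.026). With the number as a replicate block, 818, 3076 and 3465 genes were called, and 2 of the 40 were higher with Tyr19Phe, INTS5 joining LSM11, and 4 directly, PABPN1 joining; no other call among the 40 changed. Groups of 3 and differences between stable lines limit these results, and genes with few counts, such as INTS6L and CPSF4L, have wide intervals.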
